A study of Drosophila melanogaster with 6 samples.

Results

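Dachsous (ds), fat (ft) and expanded (ex), 3 genes at the upstream end of the Hippo growth-control pathway, were examined for sites occupied by Yorkie (Yki) in Drosophila melanogaster embryos. Members were all peaks of the deposited list that overlapped, by at least 1 bp, the release 5 intervals of chromosome arm 2L from 635000 to 720000 for ds, 4193000 to 4227000 for ft and 425000 to 460000 for ex. This gave 5 of the 5136 peaks of the list and 5 of the 583 peaks of 2L. The list also covers sequence outside the 6 chromosome arms, which hold 3182 of its peaks. The ds interval held 2, the ft interval 3 and the ex interval 0.

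Ds and Ft are very large cadherins on neighbouring cells. Ds acts as the ligand and Ft as the receptor, and Ft signalling restrains Yki through the kinase Warts. Ex is a FERM-domain protein at the apical cell junctions that promotes activation of the Hippo and Warts kinases and can also hold Yki in the cytoplasm by binding it. Yki is the coactivator at the end of the pathway. It has no DNA-binding domain of its own and reaches chromatin through partners such as Scalloped. In growing imaginal discs, ex is a well-known gene activated by Yki and is used as a readout of its activity, so that the pathway feeds back on itself.

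Yki occupancy was measured by chromatin immunoprecipitation and sequencing (ChIP-seq) in whole embryos aged 8 to 16 h, with 3 Yki ChIP libraries and 3 input libraries. Both groups came from the same untreated strain, labelled Y cn bw sp. The alleles listed for it are y[1] and oc[R3.2] in the first part of the genotype, sp[1], bw[1], CG33964[R4.2], cn[1], Gr22d[1] and Gr22b[1] in the second, and Rh6[1], GstD5[1], MstProx[1], lab[R4.2] and LysC[1] in the third. Embryos were crosslinked in 1.8% formaldehyde for 15 min, and the antibody, named Yki91, was a crude rabbit polyclonal serum against the full-length protein. Whole embryos were used, so strong occupancy in few cells and weak occupancy in many cannot be told apart.

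The result is 1 peak list with a start, an end and 1 score per peak. The score comes from the authors, no source used here states its scale, and it is used below only to rank and describe peaks within this list. The list has no values per library, so that depth and replicate error are unknown and no difference below could be tested. Scores on 2L ran from 6.83 to 489.6 with a median of 30.1 and quartiles of 16.1 and 65.2, and widths had a median of 457 bp and quartiles of 304 and 722 bp.

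The ds interval, which covers 85 kb, held a pair of high-scoring Yki peaks and no weak ones. The first, at 2L:701721-702363, was 643 bp wide and had a score of 204.3. The second, at 2L:714945-715647, was 703 bp wide and had a score of 162.1. Both belonged to the upper tail of the arm, in places 24 and 40 of the 583 peaks of 2L and in places 218 and 337 of the whole list. They were 12.6 kb apart and lay toward the high-coordinate end of the interval, the second of them 4.35 kb from that edge.

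The rest of the ds interval held no peak. The nearest peak before the pair was at 594651 to 595388, outside the interval, with a score of 84.18. The peak-free stretch between them was 106.3 kb long, and 60 of the 582 gaps between neighbouring peaks of 2L, or 10.3%, were at least as long. That share counts gaps, not bases. Long gaps take up more of the arm than short ones, so the share of 2L lying in such gaps is larger and was not computed. On the other side, the next peak began 24.4 kb after the pair, at 740012 to 740355, with a score of 24.05. Neither of the ds peaks therefore had another peak within 10 kb, whereas 63.3% of the peaks of 2L did. This rests on the 10 kb limit, as the pair was 12.6 kb apart. Of the peaks of 2L, 32.6% had a nearest neighbour at least as far away.

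Yki peaks at ft were more numerous and unequal in score. The highest, at 2L:4197225-4197906, was 682 bp wide with a score of 129.81, in place 67 of the 583 peaks of 2L and 547 of the whole list. It lay 4.23 kb inside the low-coordinate edge of the interval. The other 2 peaks were close to the opposite edge. One, at 2L:4221633-4222130, was 498 bp wide with a score of 33.11, in place 270 on 2L. The other, at 2L:4222374-4222697, was 324 bp wide with a score of 22.64, in place 360 on 2L. The first of this weaker pair was near the median score of the arm and the second was below it.

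The ft peaks thus fell into a single higher-scoring site and a weaker pair, on opposite sides of a peak-free stretch of 23.7 kb. The weaker pair was separated by only 243 bp. Gaps at least as long as the 23.7 kb were common, at 43.3% of those on 2L. Just outside the interval lay a peak at 4187562 to 4187941 with a score of 37.27, which ended 5.06 kb before its start, and a peak at 4227986 to 4228301 with a score of 9.06, which began 985 bp past its end. The second of these was among the weakest of the arm, in place 573 of 583.

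**Figure D1:**
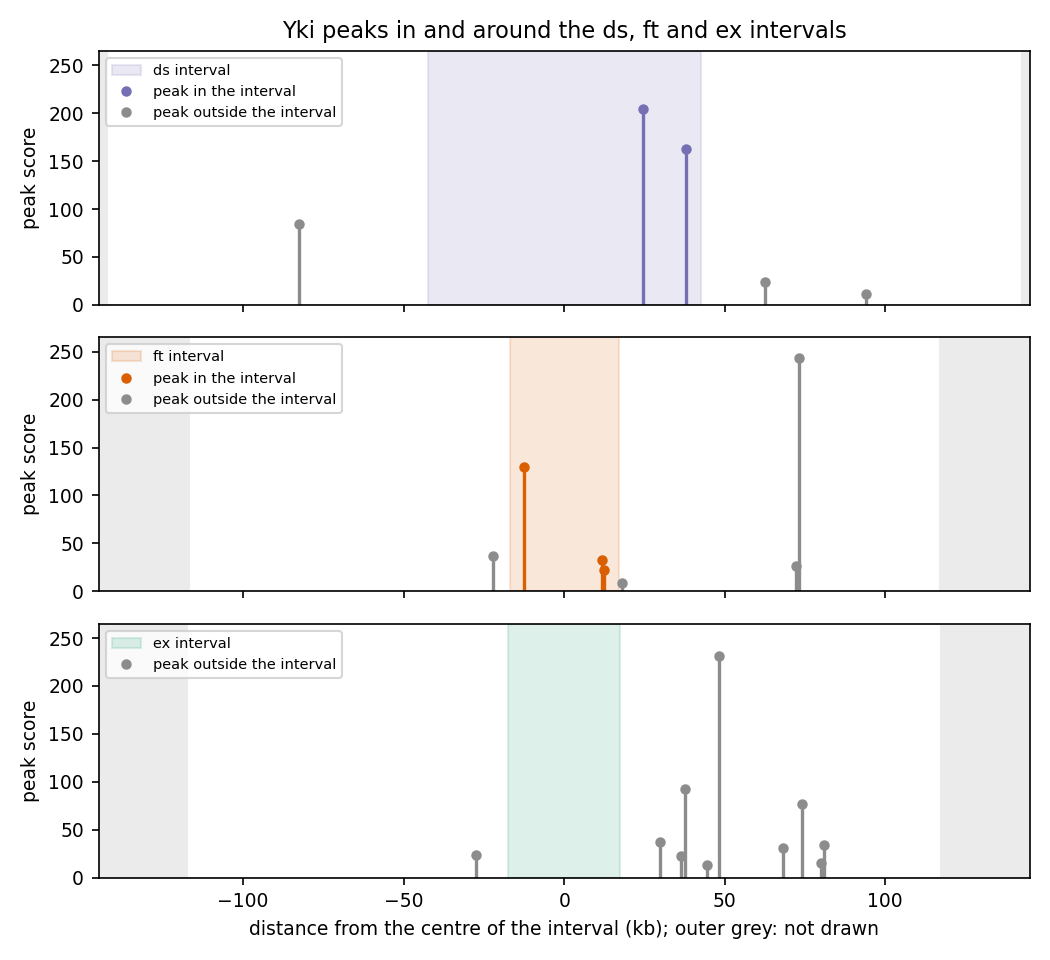
Yki peak scores (vertical axis, the authors' score) against distance from the centre of each interval in kb, for the ds, ft and ex intervals (shaded) and 100 kb on either side. Each stem is 1 peak; the ds interval has 2 tall stems of 204.3 and 162.1, the ft interval 1 of 129.81 and 2 short ones, and the ex interval none.

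No Yki peak was called in the 35 kb ex interval. The nearest peak before it was at 414734 to 415060 with a score of 24.29, which ended 9.94 kb before its start. The nearest after it was at 472089 to 472544 with a score of 37.29, which began 12.1 kb past its end. The peak-free stretch that contains the interval was thus 57.0 kb long. Stretches of that length were not rare, since 126 of the 582 gaps on 2L, or 21.6%, were at least as long, as were 21.2% of the 3176 gaps on the 6 chromosome arms. The list holds only peaks that passed the authors' threshold, so signal below it, and the level at ex in any library, are unknown.

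**Figure D2:**
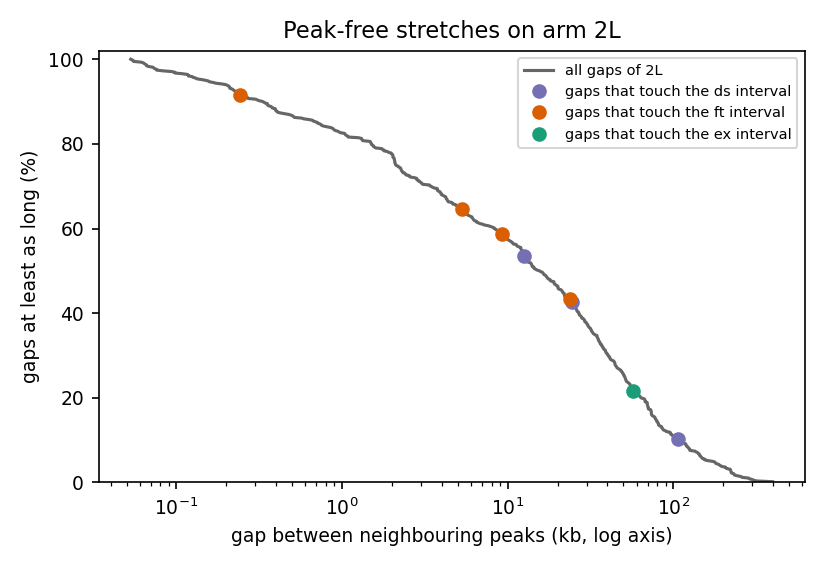
Share of the gaps between neighbouring Yki peaks of 2L that are at least as long as a given gap (vertical axis, %) against gap length in kb on a log axis. The share is of the number of gaps, not of the bases in them. Points mark the gaps that touch the ds, ft and ex intervals; the 57.0 kb gap at ex stands at 21.6% and the 106.3 kb gap at ds at 10.3%.

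Numbers of peaks were set beside those of non-overlapping windows of the same length along 2L, where a peak across a window border counted in both windows. Of 657 windows of 35 kb, 53.1% held no peak, so that the empty ex interval was like the typical window of the arm. Of 270 windows of 85 kb, 49.6% held at least 2 peaks, as many as ds. The number of peaks at ds was likewise ordinary, with a mean of 2.16 and a median of 1 over these windows. Among fixed, non-overlapping 100 kb windows of 2L, the fullest alone held 35 peaks, in a dense cluster that extends past its border. This cluster raised the mean and the arm-wide density and coverage below. Without the windows that touch that 100 kb, 49.3% of the 85 kb windows held at least as many peaks as ds. An 85 kb window with 18 peaks beside those left out stayed in, so the cluster was only partly removed. Of 676 windows of 34 kb, 8.43% held at least 3 peaks, as many as ft, 57 windows in all. Their mean was 0.880 and their median 0. In density, ds had 2.35 peaks per 100 kb and ft 8.82, beside 2.53 over the whole arm. The ft count and density took the weaker pair, 243 bp apart, as 2 peaks, and no count with that pair joined was made. They also depended on the edges and on the peak threshold. With the interval narrowed by 5 kb at each side, ft held 1 peak, or 4.17 per 100 kb. In the strongest 25% of the list it also held 1, or 2.94 per 100 kb. That value cannot be set beside the 2.53 of the arm, which counts all 583 peaks. Only 130 of those were in the strongest 25%. In the strongest 50% of the list, 9.17% of the 34 kb windows held at least as many peaks as ft then did. Peaks covered 1.58% of the ds interval and 4.42% of the ft interval, beside 1.64% of 2L.

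**Figure D3:**
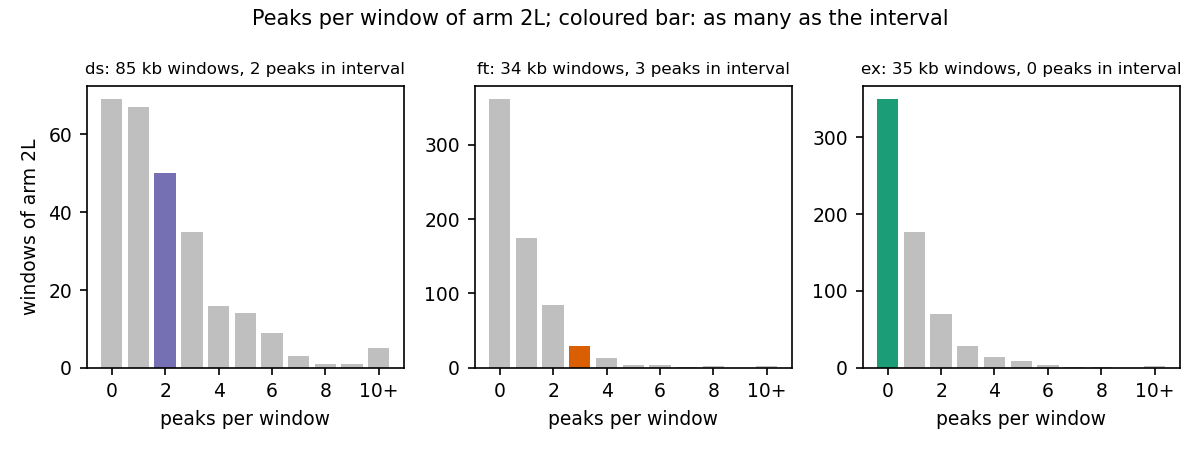
Number of windows of 2L (vertical axis) by the number of Yki peaks they hold (horizontal axis, with 10 or more together), for windows as long as the ds (85 kb), ft (34 kb) and ex (35 kb) intervals. The coloured bar holds the windows with as many peaks as the interval, which are the empty windows for ex and windows in the thin upper part of the distribution for ft.

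By score, both ds peaks and 1 of the 3 ft peaks were in the upper part of the arm. Of the 85 kb windows, 8.89% had a highest score of at least the 204.3 of ds. Of the 34 kb windows, 9.17% had a highest score of at least the 129.81 of ft. For ft this rested on a single peak 4.23 kb from the interval edge, and with the edges narrowed by 5 kb the highest ft score was 33.11, near the arm's median of 30.1. In the strongest 25% of the whole list, with scores above 72.8, were both ds peaks and 1 of the 3 ft peaks, or 3 of the 5 members, beside 22.3% of the peaks of 2L. With the strongest 25% taken within the 6 chromosome arms or within 2L, the share of members was also 60%. These 5 peaks come from 1 list and are not replicates, so the shares are set side by side without a test. The order of the 5 scores was ds, ds, ft, ft, ft. How far neighbours in this order differ beyond replicate error is unknown.

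The 3 high-scoring members were alike in width, from 643 to 703 bp. The 33 peaks of 2L in that range of widths, these 3 included, had scores from 14.6 to 372. Their median was 72.3, with quartiles of 42.1 and 144, and both ds peaks were above the upper quartile. Of the 33, 16 were in the strongest 25% of the list, again with these 3 included. The range was set by these 3 peaks, so the 33 are not an independent background for them. The 2 weaker ft peaks were also the narrower ones. All 5 members were well under the widest peak of the arm, 4837 bp.

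**Figure D4:**
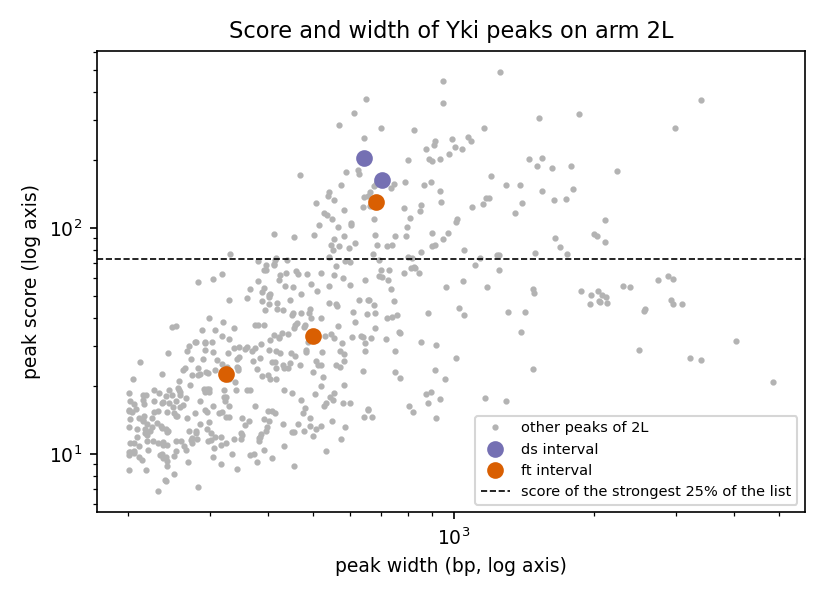
Peak score against peak width in bp for the 583 Yki peaks of 2L, both on log axes. The 2 ds peaks and the strongest ft peak lie close together above the dashed line, which marks the score of the strongest 25% of the list, and the other 2 ft peaks lie below it.

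In spacing, 3 of the 5 members, or 60.0%, had another peak within 10 kb, close to the 63.3% of all peaks of 2L. All 3 were at ft, where the strongest peak was 9.28 kb from the peak outside the interval and the weaker pair lay side by side. Both ds peaks were isolated by this measure, as were the 41.5% of the strongest peaks of 2L that had no peak within 10 kb.

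Which transcript, intron or promoter each peak falls in was not determined, since the gene table used here follows release 6 and the peaks follow release 5. The table places ds between lncRNA:CR45369 and lncRNA:CR44988, with CG2839 and Hsp60B as the nearest protein-coding genes by start position. The gene ft lies between Naprt, which encodes an enzyme of nicotinate salvage, and CG3702. The gene ex follows BBS8 and is followed by lncRNA:CR43717 and by croquemort (crq), which encodes a scavenger receptor of the CD36 family. A peak counted for ds or ft may therefore lie nearer to such a neighbour.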

How the data were processed

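The deposited file is 1 peak list for the series. Per the file headers its coordinates follow FlyBase release 5 and the peaks come from MACS, and MACS2, BWA, CASAVA (versions 1.7.0.2 and 1.7.0.3) and the build BDGP5 appear in the submitters' processing notes. Parameters, the scale of the score and any pooling of the 3 ChIP or 3 input libraries are not given in the sources used here. Each peak has 1 score deposited by the authors, with no column per library. Whether libraries came from separate embryo collections is not stated.

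Peaks overlapping the intervals by at least 1 bp were members. Gaps, nearest-neighbour distances and full non-overlapping windows were computed along 2L up to its last peak end, and the counting was checked on simulated data. The strongest 25% of peaks were taken by score over the whole list. No test was run. Every member peak, the nearest peak outside each interval edge and the adjacent genes are named by rule. The members, the intervals and the lists were chosen with earlier results of these data known; the count of empty windows for ex, the highest score per window and the range of widths were chosen after the values were seen. Promoter motifs, the pathway gene list and protein motifs were not analysed here, as no sequence was at hand. Computations used pandas 2.3.3 and numpy 2.4.6 under Python 3.11.15, and figures were drawn with matplotlib 3.10.9.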

Additional observations from a re-analysis of the deposited data

How the results depend on the processing

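The ex interval held 0 peaks and the ds interval 2 under every alternative run. These took peaks wholly inside the interval, edges moved outward or inward by 5 kb, and the strongest 50% or 25% of the list. For ex none of them could change the count, since the nearest peaks lay 9.94 and 12.1 kb outside. Both ds peaks were already in the strongest 25%, and the nearest peaks outside lay 39.6 and 20.0 kb away. The second ds peak, 4.35 kb from the edge, lay only partly inside the narrowed interval. The ft count depended on the edges and on the threshold. It was 1 with the interval narrowed by 5 kb at each side, where the density was 4.17 per 100 kb and the highest score fell to 33.11 because the site of 129.81 lies within 5 kb of the edge. Among the strongest 25% of peaks it was likewise 1 (2.94 per 100 kb), among the strongest 50% it was 2, and with the interval widened it was 4. The number of peaks on 2L falls with the threshold too, to 130 of 583 in the strongest 25%. The share of windows with at least as many peaks as ft was 9.17% in the strongest 50%. In the strongest 50% of the list, windows without a peak as long as the ex interval rose to 71.7% and windows with at least as many peaks as ds fell to 27.0%, both because fewer peaks remain. With a neighbour distance of 20 kb all members, 100%, had another peak, and at 5 kb 40.0% did. Shifting the window starts, or leaving out windows that touch the fullest fixed 100 kb of 2L, kept the ft share between 7.89 and 9.32%. Part of the dense cluster there stayed in. No paired analysis was possible because scores are not given by library, which also prevented leaving out single replicates. The alternative for promoter motif windows was not run. With sequencing depth unknown, weaker occupancy at ex cannot be bounded.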

Other observations

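Yki peaks around the ex interval lay mostly on its high-coordinate side. Within 100 kb after the interval there were 9 peaks, and within 100 kb before it there was 1, with a score of 24.29. Of the 9, 3 were in the strongest 25% of the list, beside 22.3% of all peaks of 2L. The side after also held more peaks at ds, with 2 against 1, and at ft, with 3 against 1. How often stretches of 100 kb on 2L hold as many as 9 was not computed. The highest of the 9 after ex was at 490148 to 491056 on 2L, 30.1 kb past the end of the interval. Its score was 231.63, in place 19 of the 583 peaks of the arm. It was thus higher in score than any member. The ft interval also had a higher-scoring site outside it, at 4282596 to 4283685, 55.6 kb past its end, with a score of 242.83 and place 17 on 2L. Around ds no peak within 100 kb had a score above those of the 2 members. Just beyond that limit, 106.3 kb past the end of the ds interval, a peak at 826260 to 826886 had a score of 173.39. This was above the 162.1 of the second ds peak. Which genes these flanking sites belong to was not determined, and the 100 kb limit was chosen after the values were seen.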
